A study of Mus musculus with 6 samples.

Results

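The heavy chains of MHC class I and of the class I-like proteins were examined at the RNA level in bone marrow-derived mesenchymal stromal cells (MSCs). The 10 genes were listed by symbol, with earlier results of these data known, under a rule that uses no measured value, and all 10 were found among the 23420 genes of the count table: the classical genes H2-K1 and H2-D1, the non-classical genes H2-T22, H2-T23, H2-T24, H2-M3 and H2-Q4, and the class I-like genes Hfe, Cd1d1 and Fcgrt. Polyadenylated RNA was sequenced in 3 libraries labelled control (Ctl MSC) and 3 labelled as transduced with Tpr (MSC-TPr), all from MSCs grown in the same medium. Per the study's methods, the MSCs came from the marrow of young adult female C57BL/6 mice, MSC-TPr received a retroviral construct coding for the thymoproteasome subunits β1i (Psmb9), β2i (Psmb10) and β5t (Psmb11) with eGFP as a marker, and Ctl MSC received the same construct without these genes, so that both groups carry the retroviral backbone. Neither the labels nor the methods say that the libraries of a group came from separate cultures or animals, so that p-values measure only the spread between libraries, which may be technical. The question addressed was whether the RNA of the class I heavy chains differs between the labels, since the study followed peptide carried by class I molecules at the surface of these cells.

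A class I heavy chain folds together with the light chain, encoded by B2m, around a short peptide that the proteasome has cut and the transporter of Tap1 and Tap2 has carried into the endoplasmic reticulum. The classical molecules present such peptides to CD8 T cells, and the non-classical molecules are less variable and often serve specialised receptors. The class I-like proteins have the same fold but other ligands: Hfe takes part in the control of iron uptake, Cd1d1 presents lipids to natural killer T cells, and the product of Fcgrt, the neonatal Fc receptor, binds immunoglobulin G and albumin. Transcription of the classical genes is known to be raised by interferons and NF-κB and by the transactivator Nlrc5.

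Reads counted on genes ranged from 16158756 to 22158887 per library, and 3 reads, taken as the limit of detection, were 0.139 to 0.181 CPM (the count scaled to a common library size, with edgeR's TMM factors), a limit that covers counting error only. Libraries numbered 1 went against their labels on the first principal component (58.5% of the variance), where Ctl MSC 1 scored -40.95 beside -50.27 and -49.36 in MSC-TPr 2 and 3, and MSC-TPr 1 scored 40.5 beside 50.85 and 49.23 in Ctl MSC 2 and 3. The same division appeared in 20 cell division genes, whose mean log2 CPM was 6.57, 3.22 and 3.21 for Ctl MSC 1, 2 and 3, compared with 3.27, 6.43 and 6.53 for MSC-TPr 1, 2 and 3. The transduced genes did not mark the labels over all 6 libraries either. Psmb10 measured 27.8, 8.81 and 8.38 CPM for Ctl MSC 1, 2 and 3, compared with 8.97, 17.3 and 15.2 CPM for MSC-TPr 1, 2 and 3. Psmb9 measured 3.38, 0.801 and 0.827 CPM against 0.554, 1.24 and 1.21 CPM in the same order, and Psmb11 had 1 to 6 reads per library. Over the 4 libraries numbered 2 and 3, Psmb10 was higher in MSC-TPr (log2 fold change 0.92, SE 0.156, edgeR adjusted p = 0.00547). That fit called 40.0% of all genes, and Psmb9 did not pass it (0.59, edgeR adjusted p = 0.164). The interferon-induced genes, in contrast, followed the labels in the libraries numbered 1 as well, with a sum of 1310 CPM in Ctl MSC 1 against 229 CPM for MSC-TPr 1. An exchange of the libraries numbered 1 and a difference in growth state were not tested, and an exchange would change what every value over 6 libraries means. Directions below are therefore directions between library labels, and each heavy chain is described with all 6 libraries and again with the 4 libraries numbered 2 and 3. Of 12 MSC markers, 11 were present in every library, among them Cd44 (142 to 536 CPM) and Eng (142 to 204 CPM), while Thy1 had 1 read in Ctl MSC 1 and 0 reads in the other libraries. Nt5e (CD73) was lower in every MSC-TPr library, at 2.66, 4.2 and 5.24 CPM against 11.4, 20.2 and 17.4 CPM (log2 fold change -2.02, SE 0.35, edgeR adjusted p = 0.079), and DESeq2 called it. The leukocyte marker Ptprc had 2 reads in MSC-TPr 3 and 0 elsewhere, and 12 leukocyte markers had sums of 11.3 to 14.8 CPM among controls and 13 to 17.6 CPM among MSC-TPr, with Cd3e at 0. Within this sum Cd68 had 1.63, 9.67 and 7.39 CPM among controls and 14.2, 1.66 and 0.789 CPM among MSC-TPr, and Cd14 the opposite order, at 11.7, 3.36 and 3.53 CPM against 3.27, 13.2 and 11 CPM. Endothelial markers summed to 1.27 to 6.2 CPM among controls and to 24.7, 2.66 and 2.41 CPM among MSC-TPr, where Vwf reached 21.4 CPM in MSC-TPr 1, with Pecam1 at 0.221 CPM or less. In such libraries, fewer cells of a type and less RNA per cell cannot be told apart.

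The upstream sequences of 5 heavy chain genes are shown. These are H2-K1, H2-D1 and H2-Q4, which resemble each other, H2-T23, which holds the letters searched for an interferon response element, and Hfe, which was called between the labels. Each is the 200 bases before the RefSeq transcript start (GRCm38.p6, the assembly of mm10), printed 5′ to 3′ on the strand of the gene, with matches to the motifs in capitals. The motifs searched on both strands were the κB site of enhancer A (GGGATTCCC), the core of the interferon-stimulated response element (TTCNNTTTC), the X2 box (TGACGC) and the CCAAT box (CCAAT). The regions are chr17:34000348-34000547 on the minus strand for H2-K1, chr17:35262894-35263093 on the plus strand for H2-D1, chr17:35379417-35379616 on the plus strand for H2-Q4, chr17:36032702-36032901 on the minus strand for H2-T23 and chr13:23710855-23711054 on the minus strand for Hfe.
H2-K1: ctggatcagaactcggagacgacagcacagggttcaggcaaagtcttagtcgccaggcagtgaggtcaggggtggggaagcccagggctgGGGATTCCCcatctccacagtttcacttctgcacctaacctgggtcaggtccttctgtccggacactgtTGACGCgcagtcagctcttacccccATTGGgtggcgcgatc
H2-D1: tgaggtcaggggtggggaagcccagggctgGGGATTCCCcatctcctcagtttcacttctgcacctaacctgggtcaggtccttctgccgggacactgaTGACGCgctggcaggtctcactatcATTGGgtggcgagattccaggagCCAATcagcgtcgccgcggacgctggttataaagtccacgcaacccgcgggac
H2-Q4: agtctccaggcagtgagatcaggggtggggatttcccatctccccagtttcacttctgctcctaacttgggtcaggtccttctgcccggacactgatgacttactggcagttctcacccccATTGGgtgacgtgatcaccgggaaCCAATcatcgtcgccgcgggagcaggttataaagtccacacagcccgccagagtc
H2-T23: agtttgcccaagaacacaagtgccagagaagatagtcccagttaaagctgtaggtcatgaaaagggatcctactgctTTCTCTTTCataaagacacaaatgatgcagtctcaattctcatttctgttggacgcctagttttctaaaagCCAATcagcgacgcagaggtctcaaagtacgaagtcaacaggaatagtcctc
Hfe: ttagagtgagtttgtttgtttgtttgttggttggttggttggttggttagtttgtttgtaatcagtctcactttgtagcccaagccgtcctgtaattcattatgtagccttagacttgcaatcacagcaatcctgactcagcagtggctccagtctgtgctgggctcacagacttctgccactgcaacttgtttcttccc

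The κB letters were found upstream of H2-K1 and H2-D1 and not in the 6 other members whose start is listed. Of 32851 mouse promoter windows of this length, 0.213% hold them. They lie 110 to 102 bases before the start of H2-K1 and 170 to 162 bases before that of H2-D1. The window of H2-Q4 holds the similar stretch gggatttccc, which is not a match to these exact letters. Set against each other at the same κB letters, the windows of H2-K1 and H2-D1 were identical in 90.7% of 140 bases, and H2-Q4 reached 79.6% of 137 bases with H2-K1. The X2 box was present in H2-K1, H2-D1 and H2-M3 (5.37% of all windows). The letters searched for the interferon response element, TTCNNTTTC, were present in H2-T22, H2-T23 and B2m (5.57% of all windows). The similar stretch tttcacttct, in the windows of H2-K1, H2-D1, H2-Q4 and H2-M3, is not a match to the searched letters. A CCAAT box was present in 6 of the 8 members (29.3% of all windows), with Hfe and Fcgrt as the exceptions. H2-T24 and Cd1d1 have no entry. The RefSeq starts of H2-D1 and H2-T23 lie 364 and 154 bases inside the GENCODE genes. The window of H2-D1 and the interferon response letters of H2-T23, 123 to 115 bases before its RefSeq start, are therefore inside those genes. The starts of H2-K1, H2-Q4 and Hfe are the same in both. A match describes letters and not the binding of a factor, and the absence of a match says only that these letters are not in this window.

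The coding sequences of the classical genes are alike enough that reads could be shared, so identity and exact shared stretches were measured. H2-K1 and H2-D1 were identical in 91.9% of 1074 aligned coding bases, and H2-Q4 in 91.2% with H2-K1 and 90.6% with H2-D1. H2-T23 reached 83.6% with H2-K1, while Hfe, Cd1d1 and Fcgrt stayed between 61.9% and 63.8% with both classical genes. Identity of this size still left most stretches of 100 bases unique: 0.957% of the windows in H2-K1 transcripts and 3.59% of those in H2-D1 transcripts occur in the transcripts of any other gene. Only exact matches were counted, so these shares can understate the sharing of reads.

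H2-T22 was the least separable member, with 31.5% of its windows in other genes. Of all its windows, 24% lie in A930015D03Rik, which overlaps 1003 exon bases on the opposite strand, and 6.92% in H2-T10. H2-Q4 shared 14.1%, mostly with Gm11131 on the opposite strand, and Cd1d1 shared 10.5% with Cd1d2, which had 0 or 1 read per library. H2-T24, H2-M3, Hfe and Fcgrt shared no window. The libraries were made with a stranded kit, but the sources used here do not say whether the counting used the strand, so the counts of H2-T22 and H2-Q4 are uncertain. Reads aligned to several places, 5.89% to 8.92% of the reads listed per library, are kept apart in the table and are in no gene's count.

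**Figure D1:**
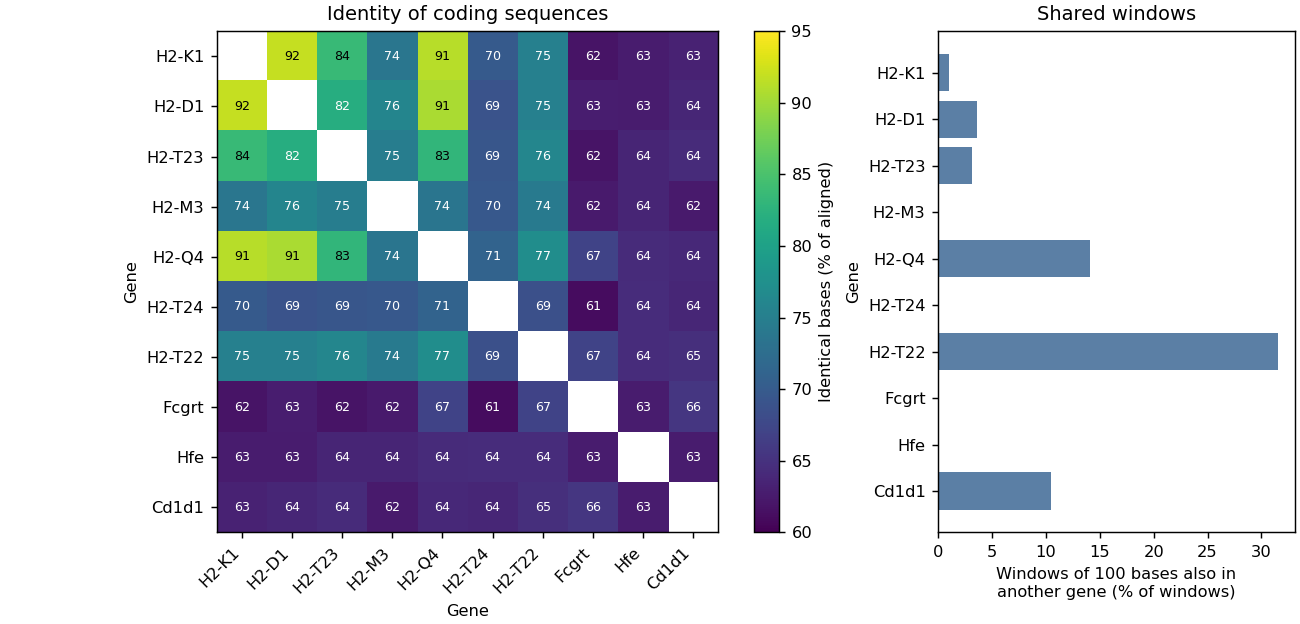
Left, identical bases as % of aligned bases between the coding sequences of each pair of heavy chain genes. Right, % of the 100-base windows of each gene's transcripts that also occur in another gene, on either strand. H2-K1, H2-D1 and H2-Q4 are over 90% identical to each other, and H2-T22 has the largest share of windows in other genes (31.5%).

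Per length, H2-D1 and H2-K1 were the most abundant of the 10 genes. Their levels in RPKM (CPM per kilobase of merged exons) had means over the 6 libraries of 42.7 for H2-D1, with a range of 28.7 to 62, and of 33.4 for H2-K1, with a range of 21.6 to 43.6. H2-D1 was above H2-K1 in 6 of 6 libraries, although the ranges of the 2 genes overlap. In the Ctl MSC libraries the reads of the 2 genes were nearly equal. Their order there rests on the merged exon lengths, 2579 bases for H2-D1 and 2938 for H2-K1. Fcgrt followed with 18.6 RPKM (10.6 to 25.5), below H2-K1 in 6 of 6 libraries. The step from Fcgrt to H2-T23, at 7.21 RPKM (5.3 to 9.38), was the only one between neighbours whose ranges did not overlap.

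The lower part of the order was less settled. H2-M3 had a mean of 5.59 RPKM (4.85 to 7.02) and was below H2-T23 in 6 of 6 libraries. Hfe, at 4.39 RPKM, ran from 1.41 to 8.29 and was below H2-M3 in 4 of 6 libraries. H2-Q4 (2.2 RPKM), H2-T24 (1.8 RPKM) and Cd1d1 (1.73 RPKM) had overlapping ranges, with H2-T24 above Cd1d1 in 3 of 6 libraries. H2-T22 was lowest at 0.737 RPKM. The light chain gene B2m, at 636 RPKM (433 to 819), was above every heavy chain gene in each library.

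Between the labels, 1 of the 10 genes was called with all 6 libraries, where a gene is called if its adjusted p is below 0.05 and its log2 fold change reaches 0.5 in size (quasi-likelihood test of edgeR, adjusted by Benjamini-Hochberg across 11974 genes). This was Hfe, which was lower in MSC-TPr, and 0.426% of all genes were called by the same rule. The groups did not overlap in 5 genes. H2-K1, H2-Q4, Hfe and Cd1d1 were lower in every MSC-TPr library, which 12.1% of all genes were, and H2-T24 was higher in every MSC-TPr library, which 10.6% of all genes were. The median log2 fold change of the 10 genes was -0.31, and that of all genes 0.01.

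Without the libraries numbered 1, 7 of the 10 genes were called, 5 lower and 2 higher in MSC-TPr, against 40.0% of all 12122 genes tested over these 4 libraries (2356 lower and 2498 higher). The groups of 2 did not overlap in any of the 10 genes, 6 being lower in MSC-TPr and 4 higher, where 39.2% of all genes were lower and 38.3% higher without overlap. The median log2 fold change was then -0.72, beside 0 for all genes. With so many genes called, a call over these 4 libraries alone does not set a heavy chain apart from other genes.

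**Figure D2:**
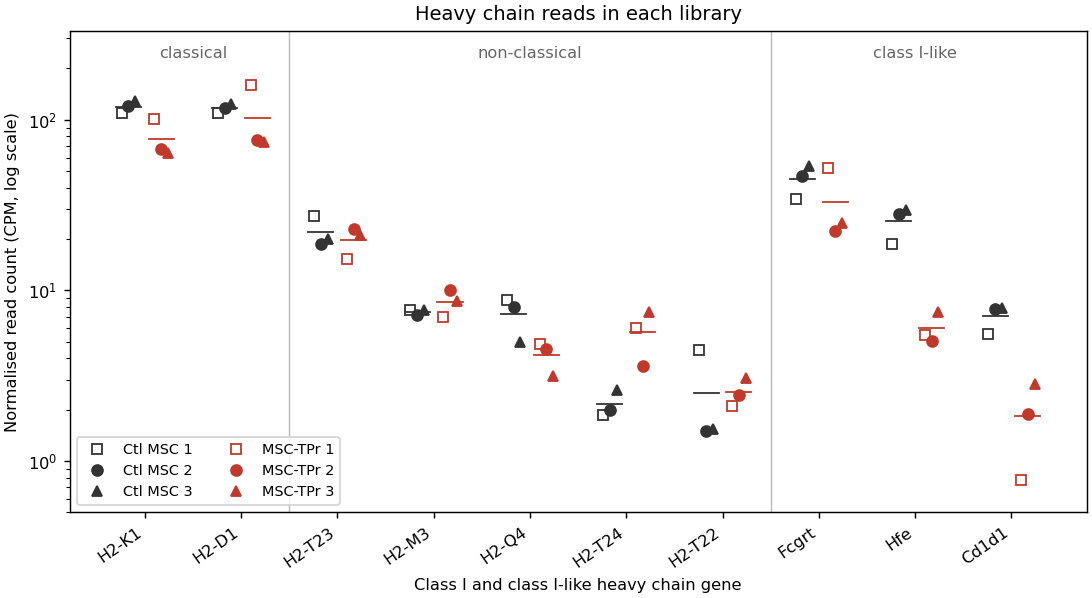
Normalised read counts (CPM, log axis) of the 10 heavy chain genes in the 3 Ctl MSC libraries (black) and the 3 MSC-TPr libraries (red), with open squares for the libraries numbered 1 and lines for the group means. Hfe, Cd1d1, H2-Q4 and H2-K1 have every red point below every black point and H2-T24 has every red point above, while the red open squares of H2-D1 and Fcgrt (MSC-TPr 1) lie well above the other red points.

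H2-K1 (ENSMUSG00000061232.16, mm10 chromosome 17, 33996017 to 34000347, minus strand) encodes the classical molecule H2-K, which in C57BL/6 mice is H2-Kb. It measured 109, 121 and 128 CPM for Ctl MSC 1, 2 and 3, compared with 101, 67 and 63.5 CPM for MSC-TPr 1, 2 and 3. The 3 MSC-TPr libraries lay below the 3 Ctl MSC libraries, with MSC-TPr 1 close to Ctl MSC 1. The means were 119 ± 9.52 CPM for controls and 77.2 ± 20.9 CPM for MSC-TPr (SD over n = 3 libraries), or on the log2 scale -0.63 (edgeR adjusted p = 0.257, SE 0.216), which did not pass the test. Over the 4 libraries numbered 2 and 3 it was -0.93 (edgeR adjusted p = 0.00176, SE 0.111).

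H2-D1 (ENSMUSG00000073411.11, chromosome 17, 35262730 to 35267499, plus strand) encodes the other classical molecule of this strain, H2-Db. Its values were 109, 117 and 124 CPM in the 3 control libraries, against 160, 76.1 and 73.9 CPM for MSC-TPr. The groups overlapped, since MSC-TPr 1 was the highest of the 6 libraries and MSC-TPr 2 and 3 the lowest. The means of 117 ± 7.7 and 103 ± 48.9 CPM (SD over n = 3 libraries) gave -0.18 on the log2 scale (edgeR adjusted p = 0.838, SE 0.319), and the 4 libraries gave -0.68 (edgeR adjusted p = 0.00467, SE 0.11). With the mean of the cell division genes as a covariate, the log2 fold change over all 6 libraries was -0.52 for H2-K1 (edgeR adjusted p = 0.0421, SE 0.135) and -0.07 for H2-D1 (edgeR adjusted p = 0.845, SE 0.198), in a fit that called 12.1% of all genes and 4 of the 10 heavy chains.

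The classical genes were also compared with each other within each library, which does not depend on the scaling of libraries. The log2 ratio of H2-K1 to H2-D1 reads was 0, 0.05 and 0.04 for Ctl MSC 1, 2 and 3, compared with -0.66, -0.18 and -0.22 for MSC-TPr 1, 2 and 3. Reads of H2-K1 and H2-D1 were thus close to equal in every Ctl MSC library, and H2-K1 had fewer in every MSC-TPr library. The means were 0.03 ± 0.026 and -0.35 ± 0.26 (SD over n = 3 libraries), and the exact permutation test over libraries gave p = 0.1 (two-sided), the smallest p that 3 against 3 libraries can give. This ratio was chosen after the values had been seen.

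Hfe (ENSMUSG00000006611.15, chromosome 13, 23702034 to 23710854, minus strand) encodes the protein that binds the transferrin receptor and is altered in hereditary haemochromatosis. It measured 18.6, 27.9 and 29.6 CPM for Ctl MSC 1, 2 and 3, compared with 5.48, 5.03 and 7.42 CPM for MSC-TPr 1, 2 and 3. The groups lay far apart in all 6 libraries, including those numbered 1. Hfe fell from 25.4 ± 5.91 to 5.98 ± 1.27 CPM (SD over n = 3 libraries), to 0.236 of the control level, or on the log2 scale -2.08 (edgeR adjusted p = 0.0466, SE 0.275). The 4 libraries gave -2.19 (edgeR adjusted p = 0.000789, SE 0.206) and DESeq2 over all 6 gave -2.07 (SE 0.312, adjusted p = 9.53e-09), where DESeq2 called 5.47% of the 11974 genes and 3 of the 10 heavy chains. The edgeR adjusted p was 0.0261 without Ctl MSC 1, but 0.191 without Ctl MSC 2, 0.18 without Ctl MSC 3, and 0.0946, 0.256 and 0.192 without MSC-TPr 1, 2 and 3.

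Cd1d1 (ENSMUSG00000028076.12, chromosome 3, 86995834 to 86999441, minus strand) had 5.56, 7.74 and 7.89 CPM in the 3 control libraries, against 0.775, 1.89 and 2.83 CPM for MSC-TPr. Every MSC-TPr library was below every Ctl MSC library, and the lowest, MSC-TPr 1, held 14 reads. The means were 7.06 ± 1.31 and 1.83 ± 1.03 CPM (SD over n = 3 libraries). The log2 fold change of -1.94 (edgeR adjusted p = 0.168, SE 0.477) did not pass edgeR's test over all 6 libraries, while DESeq2 gave -1.93 (SE 0.497, adjusted p = 0.00443) and the 4 libraries -1.71 (edgeR adjusted p = 0.00314, SE 0.243). With the cell division covariate it was -2.08 over all 6 (edgeR adjusted p = 0.0263, SE 0.454), and that of Hfe -1.97 (edgeR adjusted p = 0.00321, SE 0.245).

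Fcgrt (ENSMUSG00000003420.8, chromosome 7, 45092990 to 45103851, minus strand) had 34.3, 47.1 and 53.6 CPM for Ctl MSC 1, 2 and 3, compared with 52.2, 22.3 and 24.9 CPM for MSC-TPr 1, 2 and 3. As for H2-D1, MSC-TPr 1 stood with the Ctl MSC libraries and the groups overlapped. Its means were 45 ± 9.79 and 33.1 ± 16.6 CPM (SD over n = 3 libraries), or on the log2 scale -0.44 (edgeR adjusted p = 0.62, SE 0.368). The 4 libraries gave -1.09 (edgeR adjusted p = 0.00191, SE 0.134), whereas MSC-TPr 1 was above Ctl MSC 1 by 0.61 on the log2 scale, a comparison of single libraries. The endothelial marker Vwf had 0.483, 3.36 and 3.09 CPM among controls and 21.4, 0.769 and 0.742 CPM among MSC-TPr. Vwf, Kdr and Cd68 were highest in MSC-TPr 1 and lower in MSC-TPr 2 and 3 than in Ctl MSC 2 and 3. Not all markers of these lists did so: Pecam1 and Csf1r had 0 reads in MSC-TPr 1, and Cd14 was lowest there. What cells with such markers add to the values of Fcgrt, H2-D1 and B2m was not tested. With the cell division genes as a covariate the log2 fold change was -0.24 (edgeR adjusted p = 0.345, SE 0.165).

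**Figure D3:**
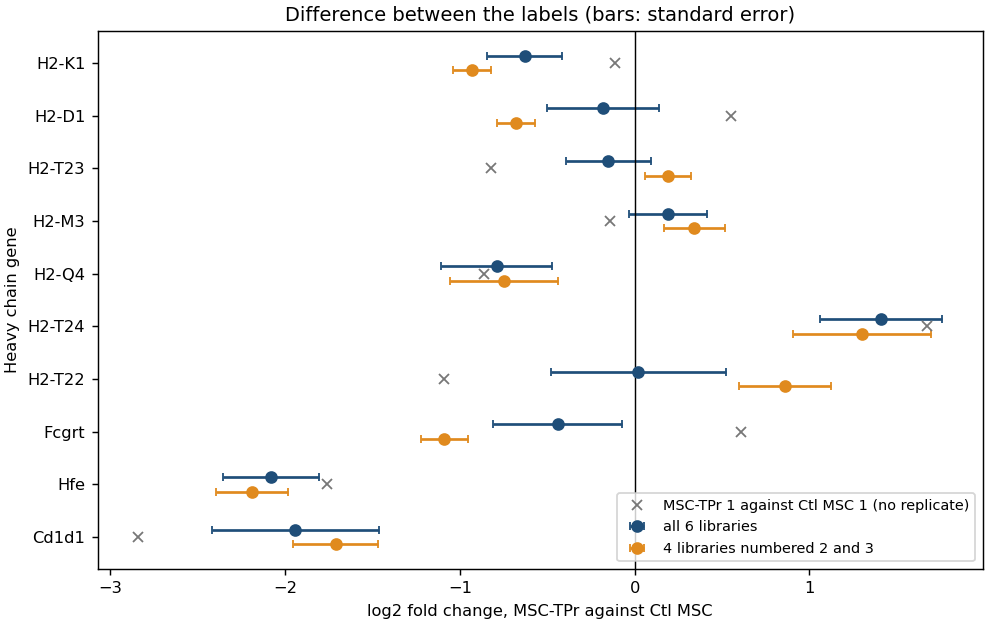
Log2 fold change of MSC-TPr against Ctl MSC for each heavy chain gene, with the standard error as bars, over all 6 libraries (blue) and over the 4 libraries numbered 2 and 3 (orange), and the single comparison of MSC-TPr 1 with Ctl MSC 1 (grey crosses, no replicate). The 3 estimates are on the same side of 0 for H2-K1, H2-Q4, H2-T24, Hfe and Cd1d1, and on both sides for H2-D1, H2-T23, H2-M3, H2-T22 and Fcgrt.

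H2-T24 (ENSMUSG00000053835.17, chromosome 17, 36005695 to 36020560, minus strand), a non-classical gene, was the one member higher in every MSC-TPr library. Its values were 1.87, 1.98 and 2.59 CPM in the 3 control libraries, against 5.98, 3.61 and 7.51 CPM for MSC-TPr, from 31 to 162 reads. The groups did not overlap, and MSC-TPr 2 was nearest to the Ctl MSC libraries. The means of 2.15 ± 0.389 and 5.7 ± 1.97 CPM (SD over n = 3 libraries) gave a log2 fold change of 1.41 (edgeR adjusted p = 0.17, SE 0.35). The call was made by DESeq2 over all 6 libraries (1.42, SE 0.406, adjusted p = 0.0144), by edgeR over the 4 libraries (1.3, SE 0.393, adjusted p = 0.0383), and by edgeR over all 6 with the cell division covariate (1.47, SE 0.337, adjusted p = 0.0305).

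H2-Q4 (ENSMUSG00000035929.11, chromosome 17, 35379617 to 35385290, plus strand) encodes the non-classical molecule Qb-1. It measured 8.82, 7.96 and 4.96 CPM for Ctl MSC 1, 2 and 3, compared with 4.87, 4.55 and 3.15 CPM for MSC-TPr 1, 2 and 3. The groups did not overlap, but Ctl MSC 3 and MSC-TPr 1 were nearly equal. The means were 7.25 ± 2.02 and 4.19 ± 0.914 CPM (SD over n = 3 libraries). All 6 libraries gave -0.79 on the log2 scale (edgeR adjusted p = 0.316, SE 0.317), the 4 libraries gave -0.75 (edgeR adjusted p = 0.0917, SE 0.309), and neither passed the test.

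H2-T23 (ENSMUSG00000067212.8, chromosome 17, 36029773 to 36032855, minus strand) encodes Qa-1, a ligand of receptors on natural killer cells. It had 27.1, 18.6 and 19.9 CPM in the 3 control libraries, against 15.3, 23 and 21 CPM for MSC-TPr, with the libraries numbered 1 at the 2 ends of the range. Its log2 fold change was -0.15 over 6 libraries (edgeR adjusted p = 0.825, SE 0.243) and 0.19 over 4 (edgeR adjusted p = 0.271, SE 0.132), so that the sign depended on the libraries used.

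H2-M3 (ENSMUSG00000016206.6, chromosome 17, 37270220 to 37274484, plus strand) presents peptides that begin with formylmethionine. It varied least of the 10 genes among Ctl MSC libraries, at 7.67, 7.16 and 7.67 CPM, and reached 6.98, 10.1 and 8.63 CPM in MSC-TPr. The groups overlapped through MSC-TPr 1, and the log2 fold change was 0.19 over 6 libraries (edgeR adjusted p = 0.733, SE 0.222) and 0.34 over 4 (edgeR adjusted p = 0.159, SE 0.175).

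H2-T22 (ENSMUSG00000056116.18, chromosome 17, 36037128 to 36042747, minus strand) encodes a ligand of some γδ T-cell receptors. Its 28 to 74 reads per library gave 4.47, 1.5 and 1.54 CPM for Ctl MSC 1, 2 and 3, compared with 2.1, 2.43 and 3.06 CPM for MSC-TPr 1, 2 and 3. Ctl MSC 1 was the highest library and Ctl MSC 2 and 3 the lowest. The log2 fold change of 0.02 over 6 libraries (edgeR adjusted p = 0.991, SE 0.5) and of 0.86 over 4 (edgeR adjusted p = 0.0394, SE 0.262) rest on counts in which 31.5% of the windows are shared with other genes, and DESeq2 gave an adjusted p of 0.183 over the 4.

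**Figure D4:**
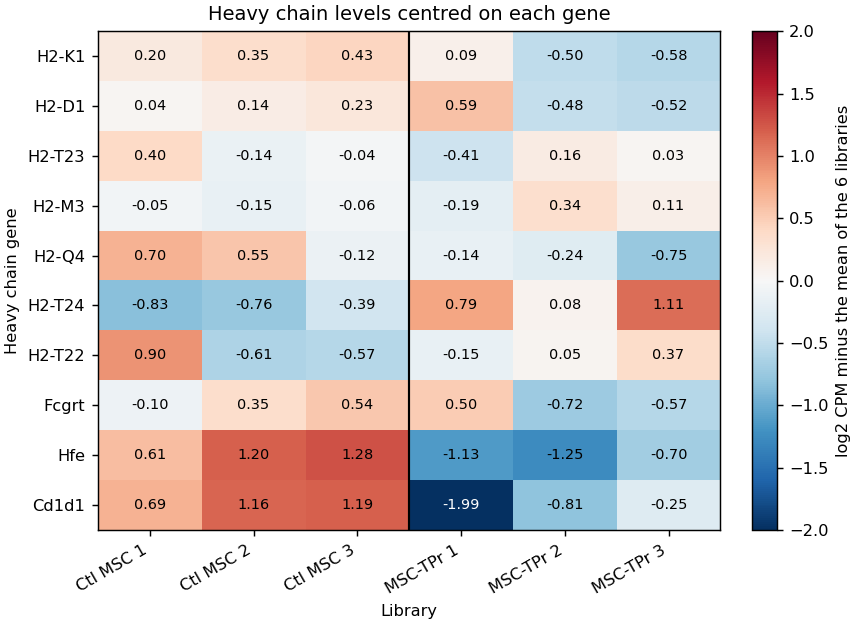
Log2 CPM of each heavy chain gene minus its mean over the 6 libraries, with the value in each cell and a line between the labels. Hfe and Cd1d1 are above their mean in all Ctl MSC libraries and below it in all MSC-TPr libraries, and MSC-TPr 1 is above the mean for H2-D1 (0.59) and Fcgrt (0.50) where MSC-TPr 2 and 3 are below it.

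The 7 members on chromosome 17 lie in the MHC region, and H2-T24, which was higher in every MSC-TPr library, is a neighbour of H2-T23 and H2-T22, whose groups overlapped. The sum of the 10 genes was 326, 358 and 380 CPM in the 3 control libraries, against 355, 216 and 216 CPM for MSC-TPr. H2-K1 and H2-D1 together made up 218, 238 and 252 CPM of it among controls and 261, 143 and 137 CPM among MSC-TPr, so that the total followed the classical pair. The 3 class I-like genes summed to 58.5, 82.8 and 91 CPM among controls and 58.5, 29.2 and 35.1 CPM among MSC-TPr, and the 5 non-classical genes stayed between 35.3 and 49.9 CPM.

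Genes with the profile most like those of the classical pair were sought among 10822 others with a mean log2 CPM of at least 1, by the root mean square difference of centred log2 CPM over the 6 libraries. For H2-K1 these were Pgrmc1, Vps41 and Dffa, at 0.0686, 0.0709 and 0.0752. For H2-D1 they were Usp21, Mira and Cdpf1, at 0.0893, 0.0905 and 0.0907. The light chain gene B2m ranked 17 for H2-D1 (0.115) and 270 for H2-K1 (0.203), and H2-K1 and H2-D1 differed from each other by 0.246. This is a description of 6 libraries, in which Ctl MSC 1 stands with MSC-TPr 2 and 3, and MSC-TPr 1 with Ctl MSC 2 and 3, in many genes.

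None of the 9 genes of class I assembly and peptide loading was called with all 6 libraries (edgeR, median log2 fold change -0.23). An unadjusted edgeR p under 0.05 was found for 0 of them, beside 1801 of all 11974 genes, and DESeq2 called 0. B2m measured 599, 578 and 605 CPM for Ctl MSC 1, 2 and 3, compared with 704, 426 and 372 CPM for MSC-TPr 1, 2 and 3, and like H2-D1 was highest in MSC-TPr 1. Its log2 fold change was -0.25 over 6 libraries (edgeR adjusted p = 0.71, SE 0.262) and -0.57 over 4 (edgeR adjusted p = 0.0152). Over the 4 libraries, B2m was the 1 gene of this list that was called, where 40.0% of all genes were called and 19.4% called lower. Calr gave -0.5 over the same 4 (edgeR adjusted p = 0.023, SE 0.127), a size just short of the limit for a call.

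The transporter genes Tap1 and Tap2 differed in direction. Tap1 had 20.5, 10.3 and 11.3 CPM in the 3 control libraries, against 10.5, 7.81 and 13.1 CPM for MSC-TPr, or on the log2 scale -0.42 (edgeR adjusted p = 0.616, SE 0.345). Tap2 was higher in every MSC-TPr library, at 28.3, 21.7 and 35.6 CPM against 20.9, 19.5 and 20.3 CPM, and its log2 fold change of 0.49 did not pass the test (edgeR adjusted p = 0.356, SE 0.221). Tapbp (tapasin, which holds the empty heavy chain at the transporter) gave -0.31, and the chaperones Calr, Canx and Pdia3 gave -0.23, -0.11 and -0.08, with edgeR adjusted p from 0.732 to 0.875.

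Among 19 transcription factors of the class I promoters, none was called by edgeR with 6 libraries, 4 had an unadjusted p under 0.05 and the same 4 were called lower by DESeq2. They include Irf7, Irf9 and Stat2, which carry the interferon signal and were lower in every MSC-TPr library. Irf7 measured 19.2, 8.76 and 9.6 CPM for Ctl MSC 1, 2 and 3, compared with 2.05, 1.72 and 1.53 CPM for MSC-TPr 1, 2 and 3. The difference was -2.82 on the log2 scale (edgeR adjusted p = 0.0504, SE 0.386). The transactivator Nlrc5 had 11.4, 23.7 and 18.6 CPM in the 3 control libraries, against 18.7, 7.81 and 9.79 CPM for MSC-TPr. Its groups overlapped, with log2 fold changes of -0.57 over 6 libraries (edgeR adjusted p = 0.565, SE 0.415) and -1.26 over 4 (edgeR adjusted p = 0.00405). Irf1 gave -0.75 (edgeR adjusted p = 0.503, SE 0.465).

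Of 21 interferon-induced genes listed, 20 were tested, and all 20 had log2 fold changes below 0, with a median of -2.77 beside -0.31 for the heavy chains. The groups did not overlap in 18, all lower in MSC-TPr (12.1% of all genes), and 4 were called lower, Ifi44, Oasl2, Rsad2 and Usp18 (0.401% of all genes). The groups overlapped for Psmb8 and for Psmb9, which is also a transduced gene. Over the 4 libraries these gave 0.6 and 0.59 on the log2 scale (edgeR adjusted p = 0.0793 and 0.164). DESeq2 called 17 lower (3.51% of all genes), and edgeR over the 4 libraries also 17 (19.4% of all genes). Ifi44 measured 69.2, 41 and 43.2 CPM for Ctl MSC 1, 2 and 3, compared with 4.04, 4.02 and 2.37 CPM for MSC-TPr 1, 2 and 3, or on the log2 scale -3.88 (edgeR adjusted p = 0.0142, SE 0.343). The list summed to 1310, 598 and 613 CPM in the 3 control libraries, against 229, 209 and 219 CPM for MSC-TPr. Ctl MSC 1, which had the highest sum of these genes, was the highest of its group for H2-T22, H2-T23 and H2-Q4, the lowest for H2-K1, H2-D1, H2-T24, Hfe, Cd1d1 and Fcgrt, and level with Ctl MSC 3 for H2-M3. The part of interferon-induced transcription in the heavy chain values was not tested.

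Of 32 other class I and class I-like genes in the table, 10 had no counted read in any library, among them H2-Q6, H2-Q7 and H2-Q10. Reads aligned to several places are in no gene's count, and the shared part of these genes' own windows was not measured. A count of 0 therefore need not mean that the RNA is absent. Of the 32 genes, 7 passed the filter on low counts. None of these 7 was called by edgeR with 6 libraries, 2 had an unadjusted p under 0.05, and DESeq2 called these 2, Procr and Raet1e, higher. Procr, the endothelial protein C receptor, had 14.7, 18.1 and 19.1 CPM for Ctl MSC 1, 2 and 3, compared with 25.6, 42.1 and 27.7 CPM for MSC-TPr 1, 2 and 3 (log2 fold change 0.88, SE 0.249, edgeR adjusted p = 0.201). Raet1e, a ligand of the activating receptor NKG2D, had 1.87, 1.44 and 1.6 CPM against 2.77, 4.73 and 4.13 CPM (1.24, SE 0.316, edgeR adjusted p = 0.176). Like H2-T24, both were higher in every MSC-TPr library without passing edgeR's test. Raet1d and Ulbp1, further NKG2D ligands of the list, overlapped between the groups. Their log2 fold changes were -0.22 and -0.04 over 6 libraries, and 0.87 and 1.58 over 4. Mr1, which presents vitamin metabolites, stayed between 12.7 and 17.6 CPM.

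H2-M10.1 followed the division of the cell division genes, in the opposite sense, and not the labels, with 0.302, 22.2 and 22.8 CPM in the 3 control libraries, against 19.7, 1.48 and 0.557 CPM for MSC-TPr. Its log2 fold change was -1.06 over 6 libraries (edgeR adjusted p = 0.804, SE 1.58) and -4.51 over 4 (edgeR adjusted p = 0.000414, SE 0.348). Among the partners of the class I-like proteins, none of 7 tested was called by edgeR with 6 libraries, while 1, Gm2a, had an unadjusted p under 0.05 and was called by DESeq2. The transferrin receptor gene Tfrc, whose product binds Hfe, had 266, 130 and 124 CPM for Ctl MSC 1, 2 and 3, compared with 113, 312 and 325 CPM for MSC-TPr 1, 2 and 3, and was high in the libraries in which the cell division genes were high. Gm2a, which helps to load lipids, was higher in every MSC-TPr library, with a log2 fold change of 1.04 (edgeR adjusted p = 0.0877, SE 0.191). The class II genes H2-Ab1 and H2-Eb1 had 0 reads in every library.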

How the data were processed

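The authors aligned the reads to mm10 and counted reads per gene with Htseq-count, and the deposited values are these raw counts. The submitters' processing notes name CASAVA 1.8.2, Trimmomatic 0.35 and TopHat2 2.1.0. The annotation and the strand setting of the counting are not given in the sources used here. Rows that name no gene (no feature, ambiguous, not uniquely aligned) held 13.8% to 20.8% of the listed reads and were left out.

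The main fit used edgeR 4.0.16 under R 4.3.3, with TMM factors, filterByExpr and the quasi-likelihood test of the label, no covariate, and Benjamini-Hochberg adjustment over all genes tested. Standard errors were derived from the log2 fold change and its F statistic. DESeq2 1.42.0 was the second tool, and both were tested on simulated counts. The members and gene lists were chosen with earlier results of these data known. Genes named beside the members were the called genes of each list, or else up to 4 with the largest change at a mean log2 CPM of at least 1, plus a fixed set of loading and regulatory genes. Other genes were named after their values were seen. Positions and transcripts came from GENCODE M21 (GRCm38) and upstream sequences from RefSeq. Coding sequences were aligned end to end with Biopython 1.88. Alternatives were other size factors and filters, DESeq2 (the tool the study names), the replicate number as a block, left-out libraries and a cell division covariate. Some genes of the lists are counted but not reported here by name.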

Additional observations from a re-analysis of the deposited data

How the results depend on the processing

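Hfe, Cd1d1, H2-K1, H2-Q4, H2-T24, H2-M3 and Fcgrt kept their direction under all 14 alternatives, and H2-D1, H2-T22 and H2-T23 did not. H2-T22 gave -0.04 with upper quartile normalization and -0.17 with the cell division covariate, and H2-T23 gave 0.19 without both libraries numbered 1. With each library left out in turn, H2-D1 ran from -0.64 to 0.02, H2-T22 from -0.24 to 0.74 and H2-T23 from -0.26 to 0.04. All genes called numbered 51 (edgeR), of which 1 was a heavy chain. These counts were 31 and 0 with at least 10 counts in every library (1627 and 5 at an unadjusted p under 0.05), 683 and 3 with DESeq2, 4854 and 7 without both libraries numbered 1, and 1452 and 4 with the cell division covariate. Leaving out each library in turn gave 0 to 108 genes (108 without Ctl MSC 1, 44 without MSC-TPr 1, 1 without MSC-TPr 2 and 0 without each of the others) and 0 to 1 heavy chains (925 to 2843 and 3 to 7 at an unadjusted p under 0.05). Heavy chains without overlap numbered 5, between 5 and 8 with 1 library left out (8 without MSC-TPr 1), and 10 without both libraries numbered 1. Of all genes, 12.1% were lower and 10.6% higher without overlap over 6 libraries, and 39.2% and 38.3% over the 4. Smaller groups overlap less often, and the share of all genes with 1 library left out was not counted. Hfe lost its call in 7 of 14 alternatives, among them the filter of at least 10 counts (edgeR adjusted p = 0.0584). The causes were not tested.

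Whether the replicate numbers pair the libraries could not be decided. Deviations from the group means correlated across genes at -0.765, -0.594 and -0.604 for the same-numbered libraries. Libraries 2 and 3 of unlike number gave -0.577, and a library numbered 1 with those numbered 2 or 3 of the other label gave 0.622 to 0.723. Libraries numbered 1 lie opposite to the rest of their group, which by itself can give these signs. With the replicate number as a block, edgeR called 0 genes and 0 heavy chains, with 776 and 3 at an unadjusted p under 0.05, and Hfe gave -2.08 (edgeR adjusted p = 0.358). Reads per library ranged from 14 to 162 for Cd1d1, H2-T22 and H2-T24, and what depth alone adds to their errors was not tested.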
